A study of Mus musculus with 14 samples.

Results

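The subject here is 10 genes of glycolysis: Pklr, Pkm, Hk2, Hk3, Pfkl, Pfkp, Aldoa and Ldha, which encode enzymes, and Slc2a1 and Slc16a3, which encode transporters of glucose and lactate. They were taken from the deposited table by annotated gene symbol, with the probe set of the highest mean where a gene had several. Each of the 10 had 1 probe set, among 19505 named genes in all. The choice sets the liver-type isozymes Pklr and Pfkl beside the forms of other cells. The rule takes genes by name, but it was written with earlier results of these data known, so counts over the members are descriptions.

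RNA was measured on 14 Clariom S mouse arrays. All mice were adult males of the strain C57Bl6 with the genotype WT, and for 2 weeks they ate either CSAA, the control diet, or CDAA with added cholesterol, glucose and fructose. In the field's usage CDAA is a choline-deficient diet of defined amino acids, which makes the liver fatty and inflamed. Hepatocytes, freed by perfusing the liver with collagenase, were hybridized from 3 preparations per diet. Whole tissue, labelled total liver, was the caudal lobe after the heart had been perfused with saline, with 4 preparations per diet. The submitters describe the preparations as independent but do not tie them to single mice, so p-values measure the spread between these preparations. RNA of each tissue came from a different extraction kit.

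Glycolysis splits glucose into pyruvate, and several of its steps are run by isozymes from separate genes. The adult hepatocyte uses a liver set, with the phosphofructokinase of Pfkl and the pyruvate kinase of Pklr in it, that suits a cell which both burns and makes glucose. Most other cells, macrophages among them, use Hk1 to Hk3, Pfkp, Aldoa and Pkm, take glucose up through Slc2a1 and release lactate through Slc16a3.

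Values are log2 probe set values, on which a difference of 1 is a doubling, and the values of different genes are not compared. The array median lay at 4.56 to 4.71 for hepatocyte arrays and at 6.07 to 6.24 for total liver, so the tissues look to have been normalized as 2 sets and their levels are given side by side without comparison. A group was called not above background where none of its arrays exceeded the 95th percentile of the 5222 negative control probe sets (introns) of the array. That percentile lay within 6.84 to 8.01 for hepatocyte arrays and within 9.96 to 10.23 for total liver. Where 1 group is not above background, its difference is followed by the part that remains with that group set to the percentile. Where both are not, the group means are given without a fold. Among the hepatocyte arrays, CDAA replicates 1 and 3 lay farthest from their group mean (root mean square 0.594 and 0.519, against 0.364 as the lowest) and correlated at 0.952, the lowest value within a group. Where leaving out either of them changed the call on a named gene in hepatocytes, the value or adjusted p without it is given.

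The tissue labels were set against marker genes. Hepatocyte markers were above background in every group, 17 of 17. In the hepatocyte preparations, 12 of 13 macrophage markers were not above background on CSAA and 0 of 13 on CDAA. The CDAA preparations labelled primary hepatocytes thus gave clear macrophage marker signal, which the CSAA preparations did not. The mean of the 13 macrophage markers ranged over 5.08 to 5.67 in the CSAA and 11.55 to 13.17 in the CDAA hepatocyte arrays, and over 8.52 to 8.97 against 11.42 to 12.18 in total liver. The mean of the hepatocyte markers was 17.56 to 17.73 against 16.63 to 17.08 in hepatocytes and 17.13 to 17.25 against 16.83 to 17.04 in total liver.

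Of the 8 genes other than the liver-type Pklr and Pfkl, 7 had higher means on CDAA in both tissues, Ldha being the exception, and no member passed the test downward. The share of all probe sets with higher means in both tissues was not counted. Among the 7, Hk2 and Slc16a3 were not above background in any group, nor were Hk3 and Pfkp in total liver. In total liver 5 of the 10 rose (Pkm, Pfkp, Aldoa, Slc2a1 and Slc16a3), where 6.73% of the 22206 probe sets tested passed upward, 3.54% downward and 10.3% in either direction. In the hepatocyte preparations 5 of the 10 rose (Pkm, Hk3, Pfkp, Aldoa and Slc16a3), where 11.0% passed upward, 7.74% downward and 18.7% in either direction. The 4 genes Pkm, Pfkp, Aldoa and Slc16a3 passed in both, a share that was not counted over all probe sets. The median log2 difference of the 10 was 1.07 in total liver and 1.34 in hepatocytes, against -0.09 and -0.13 over all probe sets. The test was limma with Benjamini-Hochberg adjustment over all probe sets, at a threshold of 0.05, and all adjusted p-values below come from it.

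In total liver every CDAA array lay above every CSAA array for 7 members and below for 1, Pklr; over all probe sets 13.1% were separated upward and 12.0% downward. In hepatocytes the groups were separated for 5 members, all upward, against 12.4% upward and 14.2% downward over all probe sets. Many of the values were dim. In total liver 7 of the 10 members were not above background on CSAA and 5 on CDAA, and in hepatocytes 5 and 2. Dim values were not confined to the members. The median of all tested probe sets also lay under the background percentile, at 5.85 to 6.06 in total liver arrays and 4.68 to 4.89 in hepatocyte arrays. The share of all probe sets not above background was not counted. The higher share of calls depended on the scaling: of all calls, 65.6% were higher on CDAA in total liver and 58.7% in hepatocytes, against 43.4% and 39.8% with arrays centred on their medians, 59.5% and 43.5% after joint quantile normalization, and 67.8% and 97.2% with arrays centred on hepatocyte markers. That last scaling moved the median of all probe sets from -0.13 to 0.92 in hepatocytes and from -0.09 to -0.24 in total liver.

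**Figure D1:**
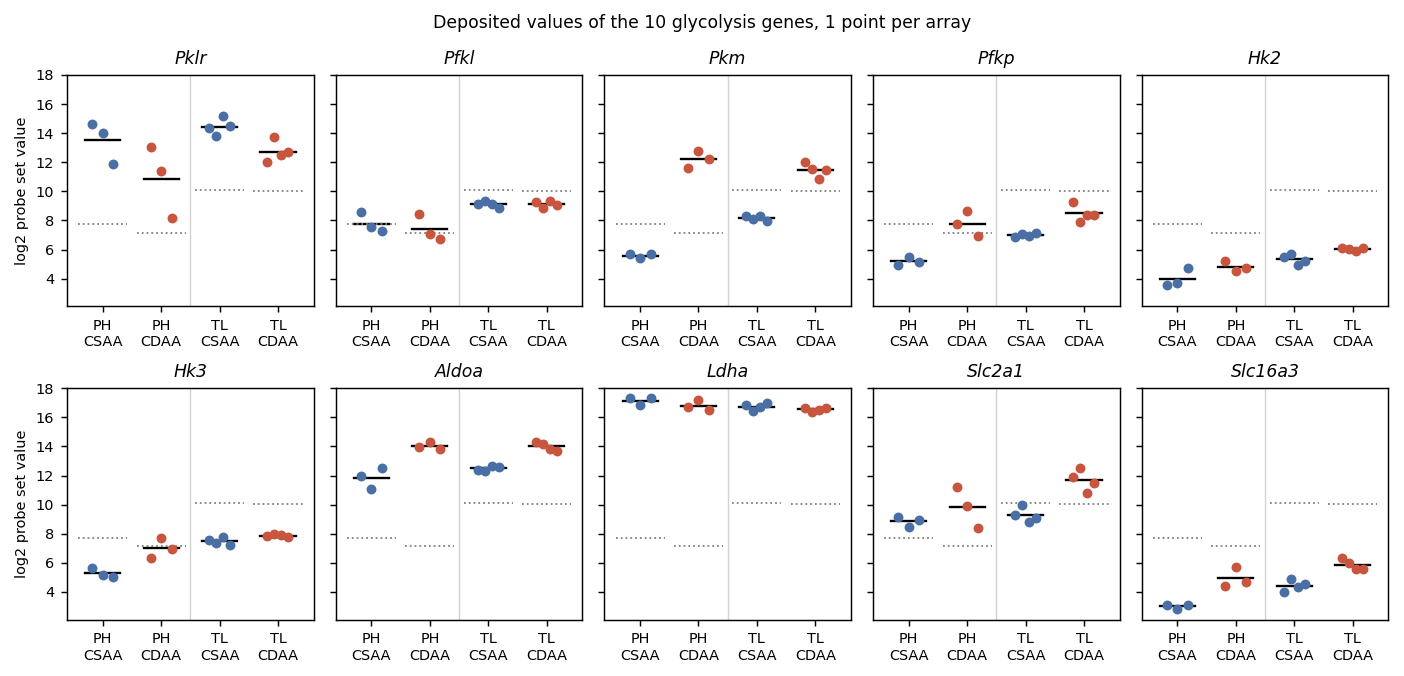
Each panel shows 1 gene, with the deposited log2 value of each array on the vertical axis and the 4 groups along the horizontal axis (PH, primary hepatocytes, 3 arrays per diet; TL, total liver, 4 arrays per diet). Bars are group means and dotted lines the mean background percentile of the group; Pkm crosses its dotted line from CSAA to CDAA in both tissues, whereas Hk2 and Slc16a3 stay under it.

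Pyruvate kinase makes the last step of glycolysis. Pklr encodes the liver form, and from another start site the red cell form, while Pkm encodes the M1 and M2 forms by alternative splicing. The deposited table holds 1 value per gene and does not separate these forms. Pkm (probe set TC0900000751.mm.2) read 5.66, 5.39 and 5.67 in the CSAA hepatocyte arrays and 11.63, 12.74 and 12.26 on CDAA. In total liver it read 8.32, 8.09, 8.33 and 7.98 on CSAA and 12.03, 11.51, 10.85 and 11.44 on CDAA. All CDAA arrays lay far above all CSAA arrays in each tissue, and on CSAA no array of either tissue was above background. The mean went from 5.57 ± 0.16 to 12.21 ± 0.56 (SD, n = 3) in hepatocytes, a difference of 6.63 ± 0.30 (SE, adjusted p = 6.85e-10 by limma), of which at least 4.47 lay above background. In total liver it went from 8.18 ± 0.17 to 11.46 ± 0.48 (SD, n = 4), a difference of 3.28 ± 0.26 (SE, adjusted p = 1.26e-06 by limma), at least 1.37 of it above background. In bulk samples such as these, more cells of a type and more RNA per cell cannot be told apart.

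Pkm was the only 1 of the 10 members whose diet difference itself differed between the tissues, by -3.35 ± 0.40 (total liver minus hepatocytes, SE, adjusted p = 0.000119 by limma), against 2.57% of all probe sets in either direction and 2.36% in this one. Both differences start from CSAA values not above background, so neither the size nor the direction of this gap is bounded. Markers of other cells moved with it. Of the 13 macrophage markers 13 rose in hepatocytes and 10 in total liver, with median differences of 7.14 and 2.53. Of the 8 endothelial markers 8 and 1 rose, and of the 7 stellate and fibroblast markers 7 and 5. For 9 of the 13 macrophage, 7 of the 8 endothelial and 4 of the 7 stellate markers the diet difference was smaller in total liver than in hepatocytes by the same test. On CSAA, 12 of the 13, 6 of the 8 and 7 of the 7 were not above background in hepatocytes. In total liver these counts were 6, 4 and 6, and gaps of such markers are not bounded in size or direction. The part of these cells in the values of Pkm was not tested.

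**Figure D2:**
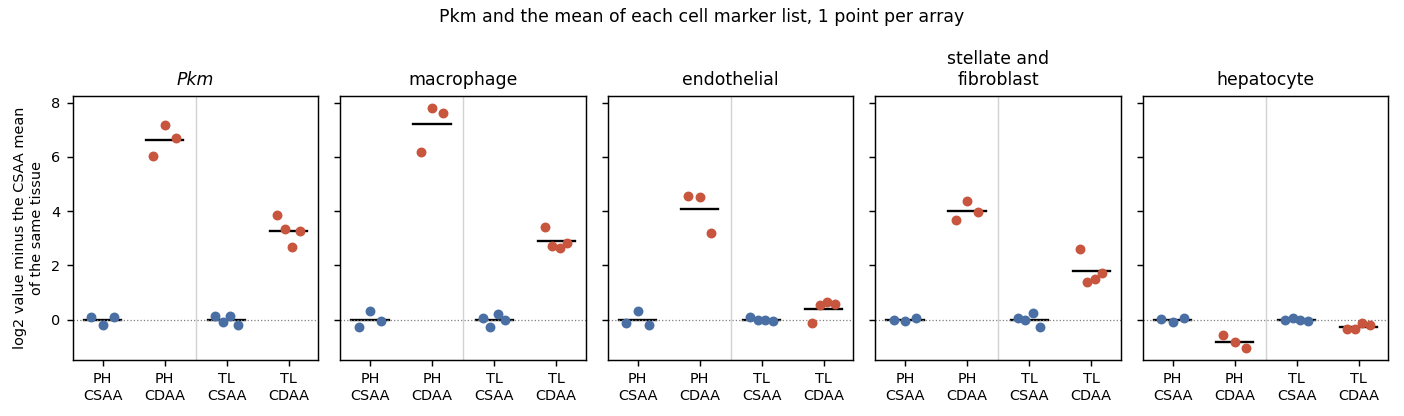
Log2 value of Pkm and means of 4 marker lists, each minus its CSAA mean in the same tissue, 1 point per array with bars at group means. On CDAA, Pkm and the macrophage mean stand highest in the hepatocyte preparations, while the hepatocyte mean is lower than on CSAA in both tissues.

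Among all named genes, those whose values ran closest to Pkm over the 14 arrays were Mpeg1, Slc11a1, Hmox1, Itgb2 and Csrp1. The root mean square difference from Pkm, each gene centred within its tissue, was 0.262 for Mpeg1, 0.284 for Slc11a1, 0.330 for Hmox1, 0.337 for Itgb2 and 0.364 for Csrp1. Mpeg1, Slc11a1 and Itgb2 encode a pore-forming protein, a metal ion transporter and an integrin of phagocytes and other leukocytes. In total liver the means of Itgb2, 5.31 on CSAA and 8.88 on CDAA, lay under the background percentile. So did the CSAA means there of Slc11a1 (9.01), Hmox1 (9.79) and Csrp1 (7.28). In CSAA hepatocytes, where the percentile was 7.57 to 8.01, Slc11a1 (5.56), Hmox1 (7.38), Itgb2 (3.15) and Csrp1 (4.97) lay under it. Mpeg1, at 7.67, lay within its range. Csrp1 was not assigned to a cell type here. Hmox1 encodes heme oxygenase, which breaks down heme. These are the nearest neighbours by a ranking and carry no test.

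Pklr had lower means on CDAA in both tissues without passing the test. The probe set TC0300000747.mm.2 read 14.32, 13.81, 15.16 and 14.46 in total liver on CSAA and 11.99, 13.72, 12.48 and 12.74 on CDAA. In hepatocytes it read 14.61, 14.02 and 11.91 on CSAA and 13.07, 11.38 and 8.14 on CDAA. The diets did not overlap in total liver and did in hepatocytes, where Pklr varied more within groups than any other member (SD 2.04). The difference was -1.71 ± 0.81 in total liver (SE, adjusted p = 0.215 by limma, 95% interval -3.43 to 0.01) and -2.65 ± 0.93 in hepatocytes (SE, adjusted p = 0.0605 by limma, interval -4.64 to -0.67).

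Whether Pklr passed depended on the setting. Array weights were 0.222, 2.88 and 0.301 for CDAA hepatocyte replicates 1, 2 and 3, so replicate 2 dominated that group. They brought Pklr past the threshold in both tissues (adjusted p = 0.00826 in total liver and 0.00622 in hepatocytes by limma). A block for equal replicate numbers within a tissue did the same (adjusted p = 0.0268 and 0.00283 by limma). In hepatocytes so did centring on array medians (-2.81, adjusted p = 0.0383). With the total liver arrays alone its SE was 0.36 and its adjusted p = 0.00601 by limma, and with the hepatocyte arrays alone the adjusted p was 0.271. In hepatocytes the difference was -1.29 (adjusted p = 0.231 by limma) without CDAA replicate 3, -3.76 (adjusted p = 0.00248) without CDAA replicate 1 and -3.45 (adjusted p = 0.0218) without CSAA replicate 3. Of the 4 erythroid markers only Alas2, the first enzyme of heme synthesis in red cell precursors, had a named probe set. It fell by 2.51 on the log2 scale in total liver (adjusted p = 1.68e-05 by limma) and by 2.73 in hepatocytes (adjusted p = 8.53e-06). The part of red cell RNA in the Pklr values was not tested. The genes closest to Pklr over the 14 arrays were Hyou1, a chaperone of the endoplasmic reticulum (root mean square difference 0.651), Tuba4a (0.653), Cmah (0.659), Scap (0.681) and Syvn1 (0.686), farther from it than the neighbours of Pkm were from Pkm.

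The upstream sequences of both pyruvate kinase genes are printed because their differences had opposite signs, although that of Pklr did not pass. All 10 members matched the RefSeq promoter table (GRCm38.p6), with 15 windows of 300 bases, from 250 before to 50 after a start site; 2 windows of Aldoa overlap. Of each window shown, the 250 bases before the start are given, 5′ to 3′. In Pklr, at its second listed start (chr3:89136373-89136622, plus strand), capitals mark CACGNG and CNCGTG set 5 bases apart, at -170 to -154, the form of the carbohydrate response element that the product of Mlxipl binds with Mlx. In Pkm (chr9:59656326-59656575, plus strand), capitals mark GGGCGG, the core of the GC box, at -70 to -65.
Pklr: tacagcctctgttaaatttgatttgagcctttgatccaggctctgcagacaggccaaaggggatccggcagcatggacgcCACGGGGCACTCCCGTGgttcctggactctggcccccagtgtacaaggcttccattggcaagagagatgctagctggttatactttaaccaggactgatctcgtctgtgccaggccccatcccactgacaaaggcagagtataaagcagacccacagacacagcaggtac
Pkm: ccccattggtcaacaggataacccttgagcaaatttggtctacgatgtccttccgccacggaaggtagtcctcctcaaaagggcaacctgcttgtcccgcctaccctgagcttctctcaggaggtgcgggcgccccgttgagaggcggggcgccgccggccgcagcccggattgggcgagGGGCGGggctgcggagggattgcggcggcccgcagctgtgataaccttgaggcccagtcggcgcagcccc
The carbohydrate motif, searched on both strands, was in Pklr and in no other member, and in 15 of 32817 windows of the table (0.0457%). GGGCGG was found in 9 of the members' 15 windows, from 8 genes, and in 35.6% of all windows, and not in the windows of Pklr. TATAA was in 5 of the 15 and in 24.9% of all windows. A match in letters is a description and says nothing of binding in these samples.

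Within an array, the Pkm value minus the Pklr value takes out whatever shifts both alike, and only its change between diets is read here. Set to the CSAA mean of the tissue, it was -0.57 to 0.54 over the total liver CSAA arrays and 4.05 to 6.30 over the CDAA arrays. In hepatocytes it reached at most 1.70 on CSAA and spanned 6.50 to 12.06 on CDAA. The balance lay toward Pkm in every CDAA array of both tissues, by 4.99 on average in total liver (pooled SD 0.762) and 9.29 in hepatocytes (pooled SD 2.23). Since Pkm was not above background on CSAA, these sizes are not bounds. Of the other pairs, Pfkp minus Pfkl and Slc2a1 minus Slc2a2 did not overlap between diets in either tissue, Slc16a3 minus Slc16a1 only in total liver, and Ldha minus Ldhb, toward Ldhb, only in hepatocytes. Ldhb itself was not above background in any group, and without CDAA hepatocyte replicate 1 it passed upward in hepatocytes (adjusted p = 0.0433 by limma, against 0.119).

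**Figure D3:**
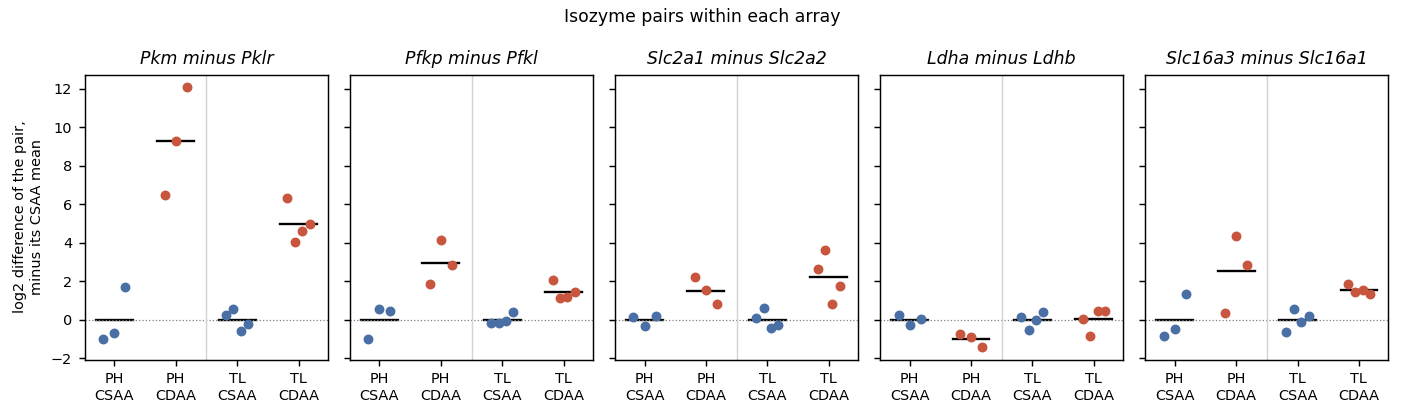
Log2 difference between the probe sets of each pair within an array, minus its CSAA mean in the tissue, for the 4 groups, 1 point per array with bars at group means. For Pkm minus Pklr the CDAA arrays lie at 4.05 to 6.30 in total liver and 6.50 to 12.06 in hepatocytes; Pkm, Pfkp, Pfkl, Slc2a1, Slc16a3 and Ldhb were not above background in 1 or more groups, so sizes are not compared between pairs.

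Hexokinases trap glucose in the cell as glucose 6-phosphate. Hk2 is the form of muscle and fat, which growing cells also use, and Hk3 is found mainly in myeloid cells. Hk3 (probe set TC1300002047.mm.2) read 5.63, 5.17 and 5.02 in CSAA hepatocytes and 6.34, 7.69 and 6.95 on CDAA. No CDAA array overlapped the CSAA arrays, and the mean went from 5.27 ± 0.32 to 6.99 ± 0.67 (SD, n = 3, adjusted p = 0.00041 by limma). The CSAA mean was not above background, and nothing of the difference remained with it set to the percentile. In total liver Hk3 was 7.49 ± 0.23 on CSAA and 7.88 ± 0.11 on CDAA (SD, n = 4, adjusted p = 0.375 by limma), not above background on either diet although the arrays did not overlap. Between the tissues the diet difference of Hk3 did not pass (adjusted p = 0.0935 by limma), but did without CDAA hepatocyte replicate 1 (adjusted p = 0.00424).

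Hk2 was not above background in any group, and its level on these arrays is therefore a ceiling. It was 4.01 ± 0.62 on CSAA and 4.80 ± 0.35 on CDAA in hepatocytes (SD, n = 3, adjusted p = 0.071 by limma), and 5.33 ± 0.30 and 6.05 ± 0.11 in total liver (SD, n = 4, adjusted p = 0.0862). Its total liver arrays did not overlap between diets, at 4.97 to 5.67 and 5.90 to 6.12. With total liver arrays alone the adjusted p was 0.0117 by limma. Without CSAA hepatocyte replicate 3, which read 4.72 against 3.58 and 3.73, it was 0.00573 in hepatocytes and 0.0321 in total liver. With arrays centred on hepatocyte markers Hk2 passed in hepatocytes (adjusted p = 0.00379 by limma).

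Phosphofructokinase commits sugar to glycolysis. Pfkp, the platelet type, read 4.97, 5.52 and 5.13 in CSAA hepatocytes and 7.76, 8.65 and 6.94 on CDAA (probe set TC1300001395.mm.2). The groups were separated, with a difference of 2.58 ± 0.38 (SE, adjusted p = 0.000124 by limma), of which at least 0.05 lay above background. In total liver Pfkp read 6.84 to 7.16 on CSAA and 7.90 to 9.27 on CDAA, with means of 6.99 ± 0.14 and 8.48 ± 0.57 (SD, n = 4, adjusted p = 0.00736 by limma). It passed the test there although neither diet was above background.

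Pfkl, the liver type, gave no difference with a stable direction. It read 8.56, 7.53 and 7.28 in CSAA and 8.47, 7.10 and 6.70 in CDAA hepatocytes, with replicate 1 the highest on each diet. Its difference there was -0.36 ± 0.39 (SE, adjusted p = 0.571 by limma), and 0.68 with arrays centred on hepatocyte markers. In total liver Pfkl was not above background, at 9.11 ± 0.19 and 9.14 ± 0.21 (SD, n = 4, adjusted p = 0.971 by limma), with the sign turned under each of the 3 other scalings.

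Aldolase splits fructose 1,6-bisphosphate, and Aldoa is the form of muscle and of most cells outside liver. It was the only 1 of the called members above background in all 4 groups. Aldoa (probe set TC0700004296.mm.2) read 11.96, 11.10 and 12.51 in CSAA and 13.97, 14.27 and 13.80 in CDAA hepatocytes. In total liver it read 12.41, 12.35, 12.64 and 12.62 on CSAA and 14.34, 14.15, 13.79 and 13.72 on CDAA. The lowest CDAA array stood above the highest CSAA array by more than a doubling in each tissue. The difference was 2.16 ± 0.30 in hepatocytes (4.46-fold, SE, adjusted p = 7.14e-05 by limma) and 1.50 ± 0.26 in total liver (2.82-fold, SE, adjusted p = 0.00124). The gap between the tissues did not pass (-0.66, adjusted p = 0.571 by limma). Without CDAA hepatocyte replicate 1 the hepatocyte difference was 2.18, and without replicate 3 it was 2.26. With arrays centred on hepatocyte markers the call in total liver was lost (1.35, adjusted p = 0.0606), as were those of Pfkp (adjusted p = 0.0913) and Slc16a3 (adjusted p = 0.123).

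Lactate dehydrogenase turns pyruvate to lactate and back, and Ldha is the gene of its A subunit, the main one in liver. Ldha gave high values with little spread in all groups, 17.30, 16.87 and 17.30 in CSAA and 16.68, 17.19 and 16.49 in CDAA hepatocytes (probe set TC0700000881.mm.2). Total liver gave 16.40 to 17.02 on CSAA and, on CDAA, 16.38 to 16.67. The diets overlapped in both tissues. The difference was -0.19 ± 0.20 in total liver (SE, adjusted p = 0.611 by limma, 95% interval -0.62 to 0.23) and -0.37 ± 0.23 in hepatocytes (SE, adjusted p = 0.30), where it turned to 0.68 with arrays centred on hepatocyte markers. The interval in total liver leaves out a change of the size seen for Aldoa there.

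The glucose and lactate transporters open and close the path. Slc2a1, the glucose transporter of red cells, endothelium and many dividing cells, read 9.32, 9.97, 8.82 and 9.10 in total liver on CSAA and 11.90, 12.52, 10.77 and 11.48 on CDAA (probe set TC0400001325.mm.2). The groups did not overlap, and the difference was 2.37 ± 0.49 (SE, adjusted p = 0.00462 by limma), at least 1.59 of it above background. In hepatocytes Slc2a1 was above background on both diets and read 9.15, 8.45 and 8.96 on CSAA against 11.20, 9.89 and 8.38 on CDAA. The CDAA arrays spanned the CSAA range, and the difference of 0.97 ± 0.56 did not pass (SE, adjusted p = 0.265 by limma). It was 0.28 without CDAA replicate 1 and 1.69 without CDAA replicate 3, the latter past the threshold (adjusted p = 0.0232 by limma). With arrays centred on hepatocyte markers the hepatocyte difference was 2.01 and passed (adjusted p = 0.00242 by limma). The difference between the tissues was 1.40 ± 0.74 and did not pass (SE, adjusted p = 0.496 by limma), but did without CDAA hepatocyte replicate 1 (2.09, adjusted p = 0.0401).

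Slc16a3 exports lactate from cells with strong glycolysis. It was not above background in any group, but its diets were separated in both tissues. It read 3.10, 2.82 and 3.11 in CSAA and 4.44, 5.71 and 4.71 in CDAA hepatocytes (probe set TC1100002052.mm.2). Means were 3.01 ± 0.16 and 4.96 ± 0.67 (SD, n = 3, adjusted p = 0.00042 by limma), and 4.45 ± 0.39 and 5.87 ± 0.38 in total liver (SD, n = 4, adjusted p = 0.00331). Of the transporters of the hepatocyte itself, Slc2a2 (0.17 in total liver, adjusted p = 0.764 by limma; -0.55 in hepatocytes, adjusted p = 0.266) and Slc16a1 (-0.12 and -0.57, adjusted p = 0.914 and 0.547) did not pass in either tissue. Without CDAA hepatocyte replicate 1 both passed downward in hepatocytes, Slc2a2 at -0.88 (adjusted p = 0.0396 by limma) and Slc16a1 at -1.40 (adjusted p = 0.0248), and with arrays centred on hepatocyte markers both had a positive sign there (0.50 and 0.48). Array weights, dominated by replicate 2 among the CDAA hepatocyte arrays, also brought Slc16a1 past the threshold in hepatocytes (-1.67, adjusted p = 0.0066 by limma).

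The upstream sequences of Slc2a1 and Ldha are printed because both hold ACGTG, the core of the element bound by hypoxia-inducible factors, while the first rose in total liver and the other did not pass. Slc2a1 lies at chr4:119108495-119108744 (plus strand), with ACGTG at -36 to -32. For Ldha the first of the listed starts is shown, at chr7:46845554-46845803 (plus strand). Capitals mark ACGTG on either strand, which on the minus strand reads CACGT, so that CACGTG holds both.
Slc2a1: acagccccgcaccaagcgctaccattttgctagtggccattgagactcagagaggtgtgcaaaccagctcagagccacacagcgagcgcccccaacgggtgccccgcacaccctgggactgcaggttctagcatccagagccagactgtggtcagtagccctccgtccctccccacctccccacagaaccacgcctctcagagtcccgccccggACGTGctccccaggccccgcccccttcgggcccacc
Ldha: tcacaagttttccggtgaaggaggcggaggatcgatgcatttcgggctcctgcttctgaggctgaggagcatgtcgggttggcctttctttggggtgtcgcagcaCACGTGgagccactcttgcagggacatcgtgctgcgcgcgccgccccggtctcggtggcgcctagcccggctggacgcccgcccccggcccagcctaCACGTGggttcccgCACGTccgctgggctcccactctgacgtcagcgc
ACGTG was found in 8 of the members' 15 windows, from 7 genes (Aldoa, Hk2, Hk3, Ldha, Pkm, Slc16a3 and Slc2a1), and in 19.6% of all windows. The full E-box CACGTG, which contains ACGTG, was in 1 of the 15, of Ldha, and in 7.15% of all windows. Members that rose and members that did not pass both held ACGTG.

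**Figure D4:**
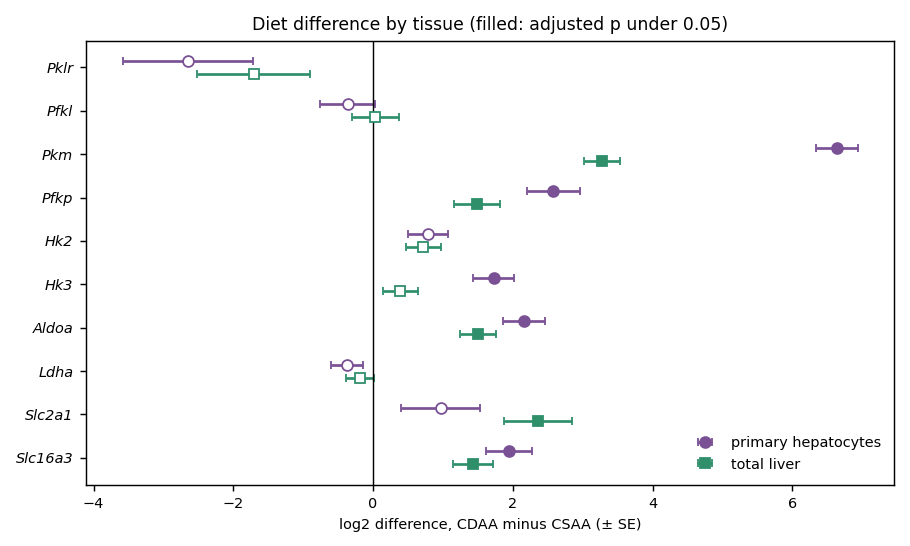
Diet difference of each gene, CDAA minus CSAA on the log2 scale with its SE, in hepatocytes (circles) and total liver (squares), filled where the adjusted p by limma was under 0.05. The fitted values of Pkm, 6.63 and 3.28, rest on CSAA groups not above background, as does that of Slc2a1 in total liver and those of Hk3 and Pfkp in hepatocytes; Hk2, Slc16a3, and in total liver also Hk3, Pfkl and Pfkp, were not above background on either diet.

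The rest of the pathway was read from lists chosen for their function. Of 12 further glycolytic enzymes measured, 0 rose and 2 fell in total liver, and 1 rose and 2 fell in hepatocytes. Over all probe sets 6.73% rose and 3.54% fell in total liver, and 11.0% and 7.74% in hepatocytes. The medians of the 12 enzymes were -0.01 and -0.15, close to those of all probe sets. Aldoc, the brain form of aldolase, fell by 2.22 ± 0.35 on the log2 scale in hepatocytes (SE, adjusted p = 0.000262 by limma), where it was above background on both diets. In total liver Aldoc was 9.67 on CSAA and 6.96 on CDAA (adjusted p = 2.88e-05 by limma), not above background on either. Aldoa and Aldoc are isozymes of the same step. With arrays centred on hepatocyte markers the call on Aldoc in hepatocytes was lost (-1.17, adjusted p = 0.09 by limma). Hk1, the hexokinase of brain and most cells, had means of 3.82 and 6.54 in hepatocytes and passed (adjusted p = 0.00344 by limma), with overlapping groups and nothing left above background. With the hepatocyte arrays alone its adjusted p was 0.0893. Pfkm, the muscle phosphofructokinase, passed downward in both tissues (adjusted p = 0.0483 and 0.0444 by limma), not above background, and lost the call in 11 of 23 alternative settings in total liver and, with 1 reversal, in 13 in hepatocytes (adjusted p = 0.118 without CDAA replicate 3).

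Of 8 further transporters, 1 rose in each tissue, against 6.73% of all probe sets in total liver and 11.0% in hepatocytes. It was Slc16a7 in both tissues, above background in all groups. This gene of a monocarboxylate transporter with high affinity for pyruvate rose by 2.33 ± 0.29 in total liver (5.03-fold, SE, adjusted p = 7.88e-05 by limma) and by 2.54 ± 0.34 in hepatocytes (5.80-fold, SE, adjusted p = 4.45e-05). Slc2a9, a urate transporter, fell in hepatocytes (-1.57, adjusted p = 0.0272 by limma) but lost the call in 7 of 23 settings, among them without hepatocyte CSAA replicate 1 or 3 or CDAA replicate 2 or 3 (adjusted p = 0.0534 to 0.113).

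Regulators of flux gave 1 call up and 1 down of 10 in total liver, and 1 up and 2 down in hepatocytes. Over all probe sets 10.3% passed in either direction in total liver and 18.7% in hepatocytes. Pdk1, a kinase that shuts pyruvate dehydrogenase, fell by 1.64 ± 0.30 in total liver (SE, adjusted p = 0.00186 by limma) and by 1.84 ± 0.34 in hepatocytes (SE, adjusted p = 0.00116). Pdp1, a phosphatase that opens it, passed upward in both (adjusted p = 0.00452 and 0.000199 by limma) with means of 5.50 and 7.17 in total liver and 3.59 and 6.17 in hepatocytes, not above background. Gckr, a regulatory protein of glucose use in hepatocytes, fell by 1.19 ± 0.24 in hepatocytes (SE, adjusted p = 0.00202 by limma) and had -0.49 in total liver (adjusted p = 0.156). With arrays centred on hepatocyte markers Pdk1 (-0.79, adjusted p = 0.225) and Gckr (-0.14, adjusted p = 0.813) no longer passed in hepatocytes, nor did Pdp1 in total liver (adjusted p = 0.0772). Gckr also lost its call with the hepatocyte arrays alone (adjusted p = 0.071 by limma). Its fall in total liver passed with the arrays of that tissue alone (adjusted p = 0.021 by limma).

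Of 12 transcription factors of glycolytic genes, 2 fell in each tissue and 0 rose. Over all probe sets 3.54% fell and 6.73% rose in total liver, and 7.74% and 11.0% in hepatocytes. Mlxipl encodes ChREBP, the glucose-sensing factor that drives Pklr. Its mean went from 14.24 to 13.07 in total liver, a difference of -1.17 ± 0.29 (2.25-fold lower, SE, adjusted p = 0.0154 by limma), and it differed by -3.25 ± 0.33 in hepatocytes, from 12.25 on CSAA (9.51-fold lower, SE, adjusted p = 3.19e-06). The fall was larger in hepatocytes by 2.08 ± 0.44 (SE, adjusted p = 0.0148 by limma), a call lost with the spread of each tissue's own arrays (adjusted p = 0.0666). In total liver the call was lost without CSAA replicate 4 (adjusted p = 0.0515) or CDAA replicate 1 (adjusted p = 0.0601). Epas1, a hypoxia-inducible factor, fell in total liver (-1.38 ± 0.36, SE, adjusted p = 0.0211 by limma; 0.0531 to 0.0742 without CSAA replicate 1, 2 or 4 or CDAA replicate 1 or 2) and missed the threshold in hepatocytes (-1.21, adjusted p = 0.0535). It passed there in 6 of 23 alternatives, among them without CDAA replicate 1 (-1.75, adjusted p = 0.001 by limma). Hnf4a, a factor of hepatocyte identity, fell in hepatocytes (-1.72, adjusted p = 0.0143 by limma; 0.052 to 0.0689 without CSAA replicate 1 or CDAA replicate 2 or 3) with overlapping groups, and had -0.52 in total liver (adjusted p = 0.46). The call in hepatocytes was also lost with those arrays alone (adjusted p = 0.164 by limma) and with centring on hepatocyte markers (-0.68, adjusted p = 0.184). In total liver Hnf4a passed downward with the arrays of that tissue alone (adjusted p = 0.0395 by limma). Hepatocyte markers moved beside them: 7 of 17 fell in hepatocytes and 0 in total liver, with medians of -0.77 and -0.27. The shares of all probe sets that fell were 7.74% and 3.54%.

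Hif1a was named after its values were seen. It had 0.30 in total liver (adjusted p = 0.539 by limma) and 0.13 in hepatocytes (adjusted p = 0.819). In hepatocytes the sign turned under joint quantile normalization and under centring on medians. With arrays centred on hepatocyte markers the value there was 1.175 and passed (adjusted p = 0.0256 by limma). Myc, also named afterwards, had 3.14 ± 1.31 and 2.81 ± 1.51 (SE, adjusted p = 0.155 and 0.225 by limma) with overlapping groups. Of 11 targets of hypoxia-inducible factors outside glycolysis, 1 rose and 0 fell in total liver, and 2 rose and 1 fell in hepatocytes. Over all probe sets 6.73% rose and 3.54% fell in total liver, and 11.0% and 7.74% in hepatocytes. P4ha1, a collagen prolyl hydroxylase, rose in hepatocytes by 2.45 ± 0.41 (SE, adjusted p = 0.000387 by limma), at least 1.20 of it above background. Adm, the gene of adrenomedullin, passed in both tissues (adjusted p = 0.0383 and 0.000106 by limma), with CSAA means of 5.38 and 3.72 not above background and nothing left above it, and lost the call in total liver in 9 of 23 settings. Vegfa, the endothelial growth factor, fell in hepatocytes by 2.44 ± 0.29 (SE, adjusted p = 1.33e-05 by limma) and had -0.81 in total liver (adjusted p = 0.0509). Its fall in total liver passed in 8 of 23 alternatives, among them the arrays of that tissue alone (adjusted p = 0.00331 by limma). The list thus held members that passed in each direction.

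**Figure D5:**
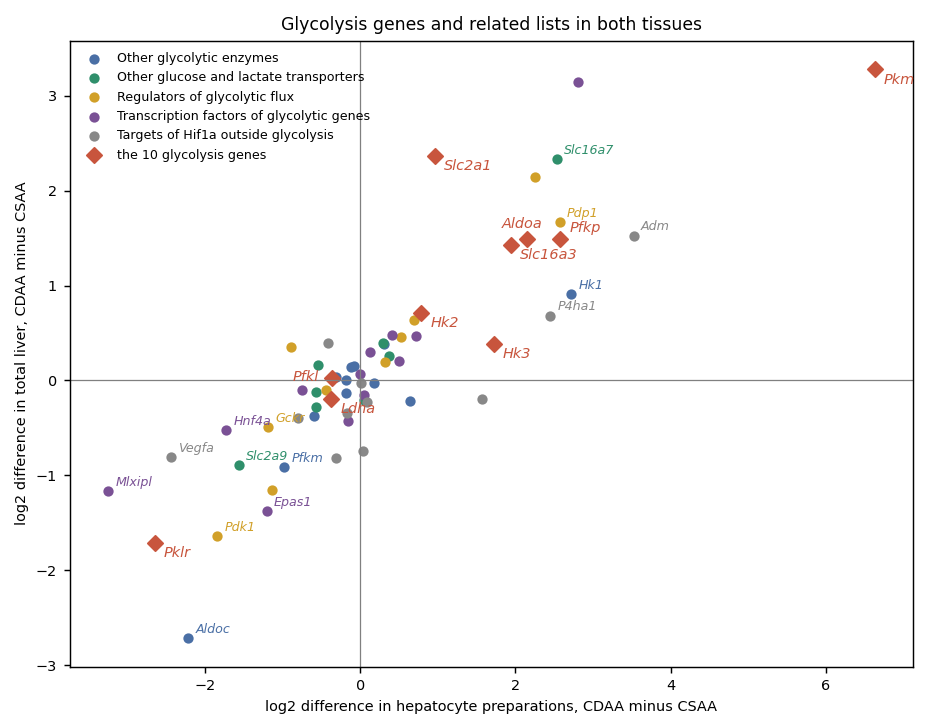
Log2 diet difference in hepatocytes (horizontal) and total liver (vertical) for the 10 genes (diamonds) and 5 related lists (dots). Genes of the lists that the text names are labelled, except Ldhb, Slc16a1, Slc2a2, Hif1a and Myc. Pkm lies far to the upper right at 6.63 and 3.28, while Pklr, Mlxipl, Aldoc and Pdk1 lie to the lower left; dim genes are drawn at their fitted values.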

How the data were processed

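RNA of 14 samples was hybridized to Clariom S mouse arrays. The deposited values are log2 probe set values that the authors made with RMA, per the submitters' processing notes; its version and the genome build are not given in the sources used here. Of 28846 probe sets, the 6640 controls were set aside and the other 22206 were tested without a filter. The platform annotation named 19572 of them with 1 symbol, 0 with several and 2634 with none. Group means were fitted to all 14 arrays in limma 3.58.1 in R 4.3.3 (10 residual and 5.11 prior degrees of freedom), with contrasts CDAA minus CSAA per tissue and their difference. Two-sided p-values were adjusted by Benjamini-Hochberg within each contrast, and 0.05 was the threshold. Samples were grouped by the tissue and diet of their titles. The script was tested on simulated data. Precision is limited by how few arrays there are.

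The members and lists were chosen with earlier results of these data known. Named were all 10 members, up to 4 genes per related list with the smallest p in each tissue that passed the test, and the partners of the isozyme pairs. Marker lists and motifs are descriptive. The marker lists of neutrophils (3 of 6 up in total liver, 4 in hepatocytes), T, NK and B cells (1 up and 1 down of 8, and 1 up), cholangiocytes (0 of 4 in each) and cycling cells (2 and 3 of 3 up) were also read. Alternatives were trend and robust moderation, the arrays of a tissue alone, a filter that drops the dimmest 30%, joint quantile normalization of both tissues, centring on hepatocyte markers or on the median of each array, array weights, the replicate block, averaging the probe sets of a gene, the 90th percentile as background, and leaving out each array.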

Additional observations from a re-analysis of the deposited data

Results flagged for a closer look

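Among 56 groups of 4 arrays of named genes, 4 held an array far from the others by Dixon's criterion, which chance exceeds in about 1 in 20 groups. Pdk1 was highest in total liver CSAA replicate 2 (12.81) and lowest in total liver CDAA replicate 1 (10.19). Pdp1 was highest in total liver CDAA replicate 1 (8.19), and Gckr in total liver CSAA replicate 2 (13.93). Diet differences that differed between the tissues by limma, total liver minus hepatocytes, were those of Pkm (-3.35, adjusted p = 0.000119), Mlxipl (2.08, adjusted p = 0.0148) and Vegfa (1.63, adjusted p = 0.03). With the spread of each tissue's own arrays Pkm kept the call (adjusted p = 0.000399 by limma), and Mlxipl (adjusted p = 0.0666) and Vegfa (adjusted p = 0.1) lost it.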

How the results depend on the processing

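Over 23 alternatives, 646 of 690 values of the 10 genes kept their direction and side of the threshold, 22 came to pass it, 3 no longer did and 19 changed sign. Pkm kept both throughout, at 3.09 to 3.48 in total liver, 6.15 to 7.68 in hepatocytes and -4.55 to -2.94 for the gap. All 2279 calls in total liver became 4613 with its arrays alone, 909 with centring on hepatocyte markers and 4992 with array weights; the 4158 in hepatocytes became 1883, 6502 and 6806 in the same order; the 570 for the gap became 1566 with that centring and 2725 with weights. Leaving out 1 array gave 1510 to 3115, 3039 to 5811 and 396 to 2265 calls, the lowest in total liver without CDAA replicate 1 and the highest for the gap without CDAA hepatocyte replicate 1. With centring on hepatocyte markers the 5 members higher in total liver became 2, and the 5 in hepatocytes became 7. Leaving out 1 array gave 5 to 6 in each tissue. The count of lower members went from 0 to 1, Pklr, in total liver with its arrays alone, array weights and the replicate block (adjusted p = 0.0268), and in hepatocytes with the dim filter (adjusted p = 0.0474), median centring (0.0383), array weights (0.00622) and the replicate block (0.00283). Leaving out 1 array gave 0 to 0 lower members in total liver and 0 to 1 in hepatocytes. For the gap 1 member was smaller in total liver, 3 with centring on hepatocyte markers and 3 with weights, 1 to 2 leaving out 1 array, which also gave 0 to 1 larger. With the replicate block the calls were 2215, 4285 and 615. Equal replicate numbers did not pair the arrays: their residuals correlated at 0.346, -0.211 and 0.262 in hepatocytes and at 0.0152, -0.0145, -0.126 and -0.0224 in total liver. Under centring on hepatocyte markers the sign turned for the gaps of Pklr (-0.25), Pfkl (-0.80) and Ldha (-1.01), for Pfkl in total liver (-0.12), and in hepatocytes for Pfkl (0.68), Ldha (0.68), Pfkm (0.068), Slc2a2 (0.50) and Slc16a1 (0.48). It turned for Pfkl in total liver under joint quantile normalization (-0.15) and median centring (-0.11), for Hif1a in hepatocytes under the same (-0.0049 and -0.032), and under array weights for the gaps of Hk2 (0.081) and Ldha (-0.16). Leaving out 1 array turned some values of Pfkl in total liver (range -0.048 to 0.12) and in hepatocytes (-0.89 to 0.023), of Hif1a in hepatocytes (from -0.26) and of the gaps of Pklr (-0.42 to 2.05) and Hk2 (-0.43 to 0.14). Of these values only Pfkm in hepatocytes had passed the test. The causes were not tested, beyond the smaller samples. Signal close to background limits Hk2, Slc16a3, Hk3, Pfkp and Pfkl most.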
